A study of Mus musculus with 26 samples.

Results

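The genes described here encode 4 families of enzymes that conjugate or hydrolyse foreign and endogenous compounds. They are the glutathione transferases, the UDP-glucuronosyltransferases, the sulfotransferases and the carboxylesterases. Members were taken by symbol alone, as every row whose name begins with a class letter and number of Gst, with Mgst, with Ugt families 1 to 3, with Sult or with Ces. In all, 68 of the 20409 genes present in any of the 4 deposited tables were members, and 60 of them were present in all 4. They comprise 25 glutathione transferases (22 soluble and 3 microsomal), 17 UDP-glucuronosyltransferases, 9 sulfotransferases and 17 carboxylesterases. Among the carboxylesterases, Ces2d-ps is named as a pseudogene and was present in 1 of the 4 tables. Symbols are given here in mouse style.

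Enterocytes take up compounds from the gut lumen and are among the first cells to metabolise them. Glutathione transferases join electrophiles to the tripeptide glutathione, glucuronosyltransferases add glucuronic acid in the endoplasmic reticulum, and sulfotransferases add a sulfonate group from the donor PAPS. Carboxylesterases cut esters in the endoplasmic reticulum, among them many prodrugs and lipid esters. Several of these genes are known to respond to nuclear receptors and to the stress sensor NRF2.

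RNA was sequenced from whole epithelium of the mouse proximal small intestine in 26 libraries. All mutants came from lines with Villin-CreERT2, a Cre recombinase made from the villin promoter in intestinal epithelium and switched on by tamoxifen. Mutants received tamoxifen on 4 consecutive days, and days are counted from the first injection. SMAD1 and SMAD5 carry BMP signals to the nucleus, SMAD4 partners them, and TBX3 belongs to the T-box factors. The day 6 SMAD1/5 table held 3 controls, given tamoxifen and so without Cre per the labels' protocols, and 3 libraries labelled SMAD1/5 iDKO. In the SMAD table of day 30, 5 controls stood beside 2 libraries labelled SMAD1/5 iDKO and 3 labelled SMAD1/4/5 iTKO. Of these controls, numbers 1 and 2 came from the SMAD1/5 line with tamoxifen and numbers 3 to 5 from the SMAD1/4/5 line with oil. The SMAD4 table held 2 oil-treated controls and 2 SMAD4 iKO libraries at day 6. The TBX3 table held 3 oil-treated controls and 3 TBX3 iKO libraries at day 30. Every comparison with controls sets mice with Cre and tamoxifen against mice lacking one of them, so deletion and active Cre cannot be told apart. In the SMAD4 and TBX3 tables, and against day 30 controls 3 to 5, tamoxifen itself differed too. Its effect cannot be told apart from the others there. Strain, age and the number of animals in a library are not given in the sources used here, so p-values measure the spread between these samples.

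Depth, estimated from the spacing of the deposited values, was about 21100000 to 30500000 fragments a library at day 6 (SMAD1/5), 13000000 to 18000000 for the SMAD libraries of day 30 and 10100000 to 18400000 for TBX3, and is unknown for SMAD4. Smad4 stood at 32.1 to 46.7 FPKM in the iTKO libraries against 128 to 163 in controls, and at 5.11 to 7.19 against 22.9 to 24.9 in the SMAD4 table. Tbx3 stood at 7.54 to 22.9 against 45.5 to 56.3 FPKM in the TBX3 table. Smad5 was higher in the libraries labelled iDKO (10.4 to 13.1 against 5.69 to 6.33 FPKM at day 6) and Smad1 overlapped its controls. Gene-level values include exons outside the deleted part and do not check those 2 deletions. The epithelial label fits its markers. The summed level of 12 enterocyte markers was 22569 to 40953 FPKM in every library, that of fibroblast, muscle and endothelial markers was at most 9.26, and that of liver markers was at most 6.09. Enterocyte position markers moved between groups. The 7 genes of the middle villus summed to 1955 to 2181 FPKM in day 6 controls against 629 to 694 in iDKO. At day 30 they summed to 1823 to 2455 in controls, 852 to 1211 in iDKO and 1483 to 1618 in iTKO. They summed to 1506 to 2452 against 734 to 1043 in the SMAD4 table, and to 2523 to 2729 against 2249 to 2524 in the TBX3 table. Villus tip markers summed to 7950 to 8394 FPKM in TBX3 controls against 4550 to 5905 in iKO, and to 9150 to 10504 against 6090 to 7037 in the SMAD4 table. Of 8 tested tip markers, 1 fell and 0 rose in TBX3 iKO, with a median log2 change of 0.22. In SMAD4 iKO 4 fell and 0 rose (median -0.85), and in iTKO 4 fell and 1 rose (median -0.94). Villus bottom markers summed to 3382 to 8753 FPKM in TBX3 controls against 12750 to 26189 in iKO, and to 4586 to 5907 against 7029 to 13038 at day 6. At day 30 they summed to 7409 to 28988 in controls, 25137 to 28975 in iDKO and 35771 to 59925 in iTKO. Of 7 tested, 3 rose at day 6, 2 in iDKO and 6 in iTKO at day 30, and 1 in TBX3 iKO. In SMAD4 iKO 1 rose and 1 fell. T cell markers also fell at day 30, in 7 (iDKO) and 9 (iTKO) of 9 tested, as did 7 of 8 Paneth cell and 6 of 7 goblet cell markers in both mutants and 7 (iDKO) and 9 (iTKO) of 10 enteroendocrine markers. Tuft cell markers fell at day 6 (5 of 7) and in SMAD4 iKO (3 of 7), where the T cell sum was 56.1 to 95.1 against 186 to 204 FPKM. The 2 pancreatic acinar markers in the day 30 table summed to 39.1 to 81.9 FPKM in day 30 iDKO against 5.61 to 10.5 in controls. At day 6 the Paneth cell sum was 74.1 and 104 FPKM in the number 2 libraries and 2757 to 9494 in the others. The part of these in the results was not tested, and in bulk RNA fewer cells of a type and less RNA per cell cannot be told apart.

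Many of these enzymes were lower in the SMAD mutant groups than in their controls. At day 6, 50 members were expressed at a testable level, at least 1 FPKM in as many libraries as the smallest group. In the libraries labelled iDKO, 23 fell and 4 rose, where 8.26% of all 10827 genes tested fell and 15.5% rose. The median member stood at -0.84 on the log2 scale and the median of all genes at 0.18. Centring each library on its median turned the counts over all genes from 1681 higher and 894 lower into 767 and 1193, and left 2 members higher, Sult6b2 and Gstp3. At day 30, 22 of 48 tested members fell and 6 rose in iDKO, where 9.31% of 11939 genes fell and 9.43% rose (member median -0.46, all genes 0.01). In iTKO, 23 of 48 fell and 6 rose, where 8.95% fell and 9.13% rose (member median -0.54, all genes 0.01). These comparisons share their 5 controls. In SMAD4 iKO, 12 of 52 tested members fell and 1 rose, against 2.14% and 1.28% of 12202 genes (medians -0.51 and 0.03). In TBX3 iKO, 7 of 44 fell and 1 rose, against 2.08% and 1.34% of 9794 genes, and the median member was at -0.01 with all genes at -0.06. Members pass the filter on low values in part through the group where they are high, so these counts describe the tested members only.

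Direct comparison of iTKO with iDKO called 1 of 48 members higher and 0 lower, where 0.218% of all genes were higher and 0.544% lower. Across the 5 comparisons with controls, 44 members were tested every time. Ugt2a3, Ugt2b34, Ugt2b36, Ugt2b5 and Gstt1 fell in all 5. Another 7 members fell in 4 comparisons and 7 in 3. Sult6b2, Ces2b and Gstp3 rose in 3. Gsta3 was called in both directions. Such counts were not made over all genes, and the iDKO and iTKO comparisons at day 30 share their 5 controls and their fit. The counts therefore describe these members only.

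**Figure D1:**
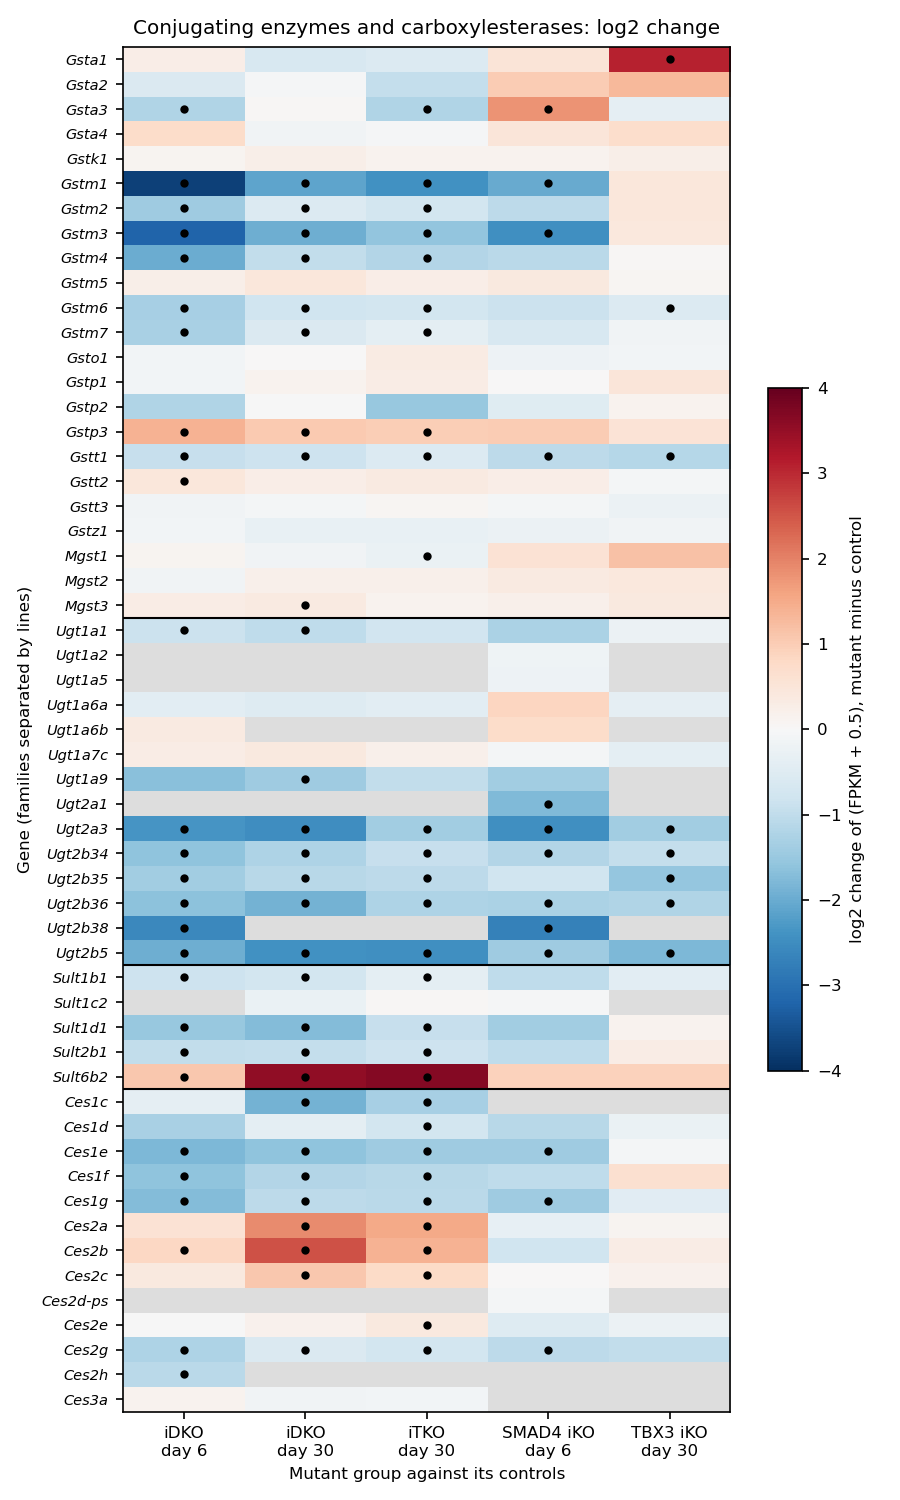
Log2 change of the 55 members tested in at least 1 table (rows, families separated by lines) in each comparison with controls (columns), coloured from lower (blue) to higher (red) in the mutant on the log2(FPKM + 0.5) scale. Dots mark limma adjusted p under 0.05, and grey cells were not tested. The 5 members lower in every comparison with controls include 4 Ugt2 genes, and Sult6b2 shows the largest rise at day 30 among members.

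The family 2 glucuronosyltransferases fell in every comparison with controls, apart from Ugt2b35 in SMAD4 iKO. They act on steroids, bile acids and drugs, and lie in 1 cluster on chromosome 5. All 6 tested members fell at day 6, all 5 fell in each day 30 comparison and in the TBX3 table, and 6 of 7 fell in the SMAD4 table. Among all genes tested, 8.26% fell at day 6, and 9.31% in iDKO and 8.95% in iTKO at day 30. For SMAD4 iKO and TBX3 iKO the shares were 2.14% and 2.08%. Summed over the 15 glucuronosyltransferase genes in the day 6 SMAD1/5 table, controls held 679, 539 and 712 FPKM against 373, 263 and 192 in iDKO. Over the 16 in the TBX3 table the sums were 587, 565 and 502 FPKM in controls against 291, 252 and 296 in iKO.

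Since these genes moved together, the promoters of 5 Ugt2b members and of Ugt2a3 are shown, from 100 bases before to 20 after the RefSeq gene start in GRCm38.p6, read 5′ to 3′ on the gene's strand. Capitals mark the pattern GTTANANTTTAAC and any stretch of 8 or more bases found in at least 3 of the 5 Ugt2b promoters. The windows are chr5:86906918-86907037 (minus strand) for Ugt2b34, chr5:87000760-87000879 (plus) for Ugt2b35, chr5:87092536-87092655 (minus) for Ugt2b36, chr5:87140321-87140440 (minus) for Ugt2b5, chr5:87424184-87424303 (minus) for Ugt2b38 and chr5:87337176-87337295 (minus) for Ugt2a3.
Ugt2b34: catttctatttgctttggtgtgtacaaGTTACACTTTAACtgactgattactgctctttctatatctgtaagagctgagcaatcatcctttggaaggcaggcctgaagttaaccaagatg
Ugt2b35: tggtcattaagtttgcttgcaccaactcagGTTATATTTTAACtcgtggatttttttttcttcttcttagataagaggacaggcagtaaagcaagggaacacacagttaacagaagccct
Ugt2b36: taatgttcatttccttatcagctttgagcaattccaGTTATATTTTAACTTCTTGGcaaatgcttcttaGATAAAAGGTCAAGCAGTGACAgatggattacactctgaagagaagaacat
Ugt2b5: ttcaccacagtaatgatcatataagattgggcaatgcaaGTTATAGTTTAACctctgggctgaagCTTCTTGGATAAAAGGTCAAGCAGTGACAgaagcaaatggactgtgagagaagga
Ugt2b38: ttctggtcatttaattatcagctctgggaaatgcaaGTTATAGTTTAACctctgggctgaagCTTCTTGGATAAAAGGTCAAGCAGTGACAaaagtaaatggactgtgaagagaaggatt
Ugt2a3: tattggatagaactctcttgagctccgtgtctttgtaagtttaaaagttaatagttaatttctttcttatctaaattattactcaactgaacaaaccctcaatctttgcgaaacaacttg
The pattern GTTANANTTTAAC lies in all 5 Ugt2b windows, 73 to 61 bases before the start, and not in that of Ugt2a3, which fell as well. Among the 32851 mouse promoters of 300 bases in the table, 11 (0.0335%) hold it on either strand. Ugt2b36, Ugt2b5 and Ugt2b38 also share GATAAAAGGTCAAGCAGTGACA, found in 4 promoters in all. Ugt2b37 is the other gene with that stretch and holds the pattern too, yet was at most 0.0841 FPKM in any library where it was listed. The letters are a description of these windows and were chosen after the sequences were seen.

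Ugt2a3, a glucuronosyltransferase abundant in small intestine, stood at 109, 75.4 and 105 FPKM in day 6 controls and at 28.4, 16.7 and 12.7 in iDKO. At day 30 controls held 62.5, 80.0, 100.3, 75.0 and 88.3 FPKM, iDKO 11.8 and 16.5, and iTKO 34.5, 28.9 and 27.1. In the TBX3 table controls held 122.7, 125 and 103 FPKM and iKO 42.9, 41.9 and 46.3. No mutant library reached a control in any of these groups, and SMAD4 libraries (89.7 and 70.7 against 19.3 and 10.49 FPKM) were apart as well. The fall was -2.36 ± 0.29 on the log2 scale at day 6 (estimate ± SE, limma adjusted p = 0.00314), -2.48 ± 0.18 in iDKO at day 30 (adjusted p = 2.55e-05) and -1.40 ± 0.16 in iTKO (adjusted p = 0.000306). It was -2.44 ± 0.31 in SMAD4 iKO (adjusted p = 0.0287) and -1.40 ± 0.11 in TBX3 iKO (adjusted p = 0.00311). Ugt2a3 was the member called between the mutant groups at day 30, higher in iTKO than in iDKO by 1.08 ± 0.20 on the log2 scale (limma adjusted p = 0.0366). That call ended without iDKO 1 or any of the 3 iTKO libraries (adjusted p 0.0918 to 0.373).

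Ugt2b34 was the most abundant glucuronosyltransferase gene in TBX3 controls, at 331, 320.1 and 283 FPKM against 161, 143 and 182 in iKO. At day 6 it stood at 327, 296 and 343 FPKM in controls against 149.7, 99.7 and 80.0 in iDKO. At day 30 it stood at 238 to 344 FPKM in 5 controls (median 267), 105 and 129 in iDKO, and 196, 131 and 118 in iTKO. Groups did not overlap in these tables, nor in the SMAD4 table, where controls held 382 and 368 FPKM and iKO 173 and 158. The log2 change was -1.60 ± 0.22 at day 6 (limma adjusted p = 0.0047), -1.23 ± 0.19 and -0.92 ± 0.17 in iDKO and iTKO (adjusted p = 0.00159 and 0.004), -1.18 ± 0.12 in SMAD4 iKO (adjusted p = 0.0175) and -0.95 ± 0.12 in TBX3 iKO (adjusted p = 0.0142).

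Ugt2b5 stood at 58.1, 28.7 and 71.7 FPKM in day 6 controls against 29.4, 10.2 and 6.31 in iDKO, so iDKO 1 lay above control 2. At day 30 its 5 controls held 11.4 to 18.0 FPKM (median 13.5), iDKO 1.82 and 2.53, and iTKO 3.96, 1.91 and 1.15, with no overlap. TBX3 controls held 28.8, 19.2 and 16.4 FPKM and iKO 6.35, 6.85 and 4.18. The log2 change was -1.94 ± 0.57 at day 6 (limma adjusted p = 0.0496), -2.44 ± 0.31 and -2.46 ± 0.27 at day 30 (adjusted p = 0.000499 and 0.00027), -1.44 ± 0.22 in SMAD4 iKO (adjusted p = 0.0391) and -1.79 ± 0.25 in TBX3 iKO (adjusted p = 0.0171). The day 6 call ended without control 1, control 3, iDKO 2, iDKO 3 or the number 2 libraries of both groups (adjusted p 0.0995 to 0.139), and also under 4 other settings (0.0515 to 0.0811). About 24.7% of the 100-base stretches in its transcript occur in Ugt2b38, so reads may be split between this pair.

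Ugt2b36 and Ugt2b35 changed in the same direction at lower levels. Ugt2b36 stood at 8.54, 6.19 and 11.2 FPKM against 4.18, 1.80 and 1.69 at day 6, and at 8.55, 6.30 and 5.61 against 2.23, 3.13 and 2.56 in the TBX3 table. Its log2 change ran from -1.90 ± 0.22 in iDKO at day 30 (limma adjusted p = 0.000315) to -1.21 ± 0.19 in TBX3 iKO (adjusted p = 0.0219). Ugt2b35 fell at day 6 (-1.38 ± 0.34, adjusted p = 0.0312), at day 30 in both mutants and in TBX3 iKO (24.9, 15.6 and 17.3 against 7.17, 6.40 and 5.13 FPKM, -1.54 ± 0.20, adjusted p = 0.014). In SMAD4 iKO it stood at 16.4 and 17.2 against 26.5 and 32.4 FPKM and was not called (-0.79 ± 0.16, adjusted p = 0.0741). Ugt2b38 fell from 2.87, 7.45 and 5.53 FPKM to 1.01, 0.139 and 0.265 at day 6 (-2.59 ± 0.42, adjusted p = 0.00773) and from 15.7 and 6.85 to 0.835 and 1.64 in SMAD4 iKO (-2.69 ± 0.44, adjusted p = 0.047). At day 6 the Ugt2b36 call ended without control 3, iDKO 2, iDKO 3 or the number 2 libraries of both groups (adjusted p 0.0553 to 0.0614) and that of Ugt2b35 without any of these or control 1 (0.07 to 0.0987). In the TBX3 table the call of Ugt2b34 ended without any 1 control or iKO 1 (0.0602 to 0.0673), Ugt2b36 without any 1 control, iKO 1 or iKO 3 (0.0661 to 0.0844), Ugt2b5 without control 2, control 3 or iKO 1 (0.0582 to 0.0658) and Ugt2b35 without control 3 (0.0667). In the SMAD4 table, with 2 libraries a group, each fit without 1 library left a group with 1. All 12 named member calls ended in such fits, and this holds for every SMAD4 call given below. Those fits had too few libraries to judge any call, so the SMAD4 calls rest on 2 libraries a group.

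**Figure D2:**
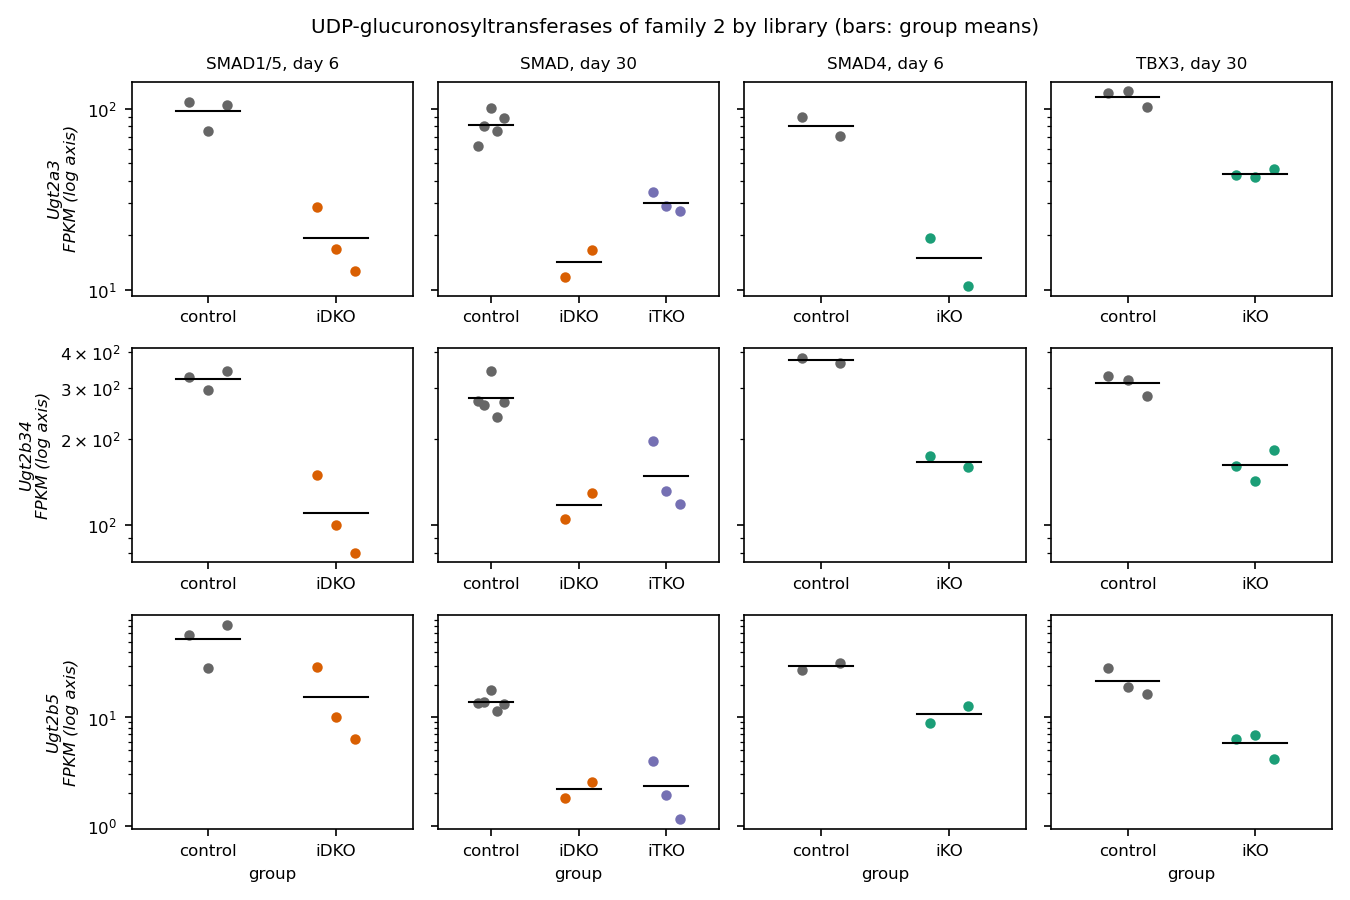
FPKM on a log axis of Ugt2a3, Ugt2b34 and Ugt2b5 (rows) in each library (points, bars are group means) of the 4 tables (columns). Mutant libraries lie below their controls in every panel, except that 1 iDKO library of Ugt2b5 at day 6 (29.4 FPKM) lies just above the lowest control (28.7).

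The family 1 glucuronosyltransferases are made from 1 locus on chromosome 1, where alternative first exons join shared later exons. Their transcripts share 50.4% to 70.9% of 100-base stretches with one another, so the split of reads between them is uncertain. Ugt1a1, the bilirubin glucuronosyltransferase, stood at 36.8, 28.1 and 39.96 FPKM against 22.8, 16.5 and 17.7 at day 6 and fell (log2 -0.86 ± 0.17, limma adjusted p = 0.0156). It also fell in iDKO at day 30 (8.60 and 19.1 FPKM against 16.7 to 33.9 in controls, -1.02 ± 0.32, adjusted p = 0.0464), where 1 iDKO library lay within the controls. The day 6 call ended without control 3, iDKO 2 or iDKO 3 (0.0534 to 0.0615). The day 30 call ended without iDKO 1 or any of controls 2 to 5 (0.0755 to 0.484). Ugt1a7c, the highest of the group in day 30 controls at 68.5 to 137 FPKM, was called in no comparison. Ugt1a9 was called in iDKO at day 30 (0.530 and 2.00 FPKM against 2.45 to 5.68, -1.44 ± 0.39, adjusted p = 0.0261), and the differences between comparisons were not tested.

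Among sulfotransferases, Sult6b2 rose at day 6 and day 30, where Sult1b1, Sult1d1 and Sult2b1 fell. Sult1c2, at most 1.13 FPKM in the day 30 libraries, was tested there and not called. Sult6b2 belongs to a small and little studied branch of the family. At day 30 it stood at 7.99, 8.48, 6.92, 9.25 and 13.6 FPKM in controls, 123.3 and 101 in iDKO, and 111, 121 and 131 in iTKO. The lowest mutant library was far above the highest control, and controls of both lines were alike in being low. Sult6b2 was 12.1-fold higher in iDKO (log2 3.56 ± 0.20, limma adjusted p = 8.6e-06) and 13.1-fold higher in iTKO (3.67 ± 0.18, adjusted p = 1.93e-06), with both calls kept when any 1 library was left out. Levels at day 6 were 197, 273 and 162 FPKM in controls and 454, 369 and 495 in iDKO (1.08 ± 0.21, adjusted p = 0.0148), again without overlap. Without iDKO 3 the day 6 call ended (adjusted p = 0.0577). In the SMAD4 table it stood at 415 and 250.1 FPKM in controls against 773 and 492 (0.93 ± 0.32, adjusted p = 0.197). For TBX3, values of 32.7, 120.4 and 30.8 FPKM in iKO stood against 37.3, 17.7 and 25.7, and iKO 2 alone was above all controls (0.93 ± 0.54, adjusted p = 0.446). Tables were normalised separately, so levels are not compared between them. Sult6b2 shares no 100-base stretch with another gene.

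Sult1d1 and Sult1b1, which sulfonate phenols, catecholamines and thyroid hormones, are neighbours in the chromosome 5 cluster of the Ugt2 genes. Sult1d1 stood at 144, 165 and 181 FPKM in day 6 controls against 72.4, 49.7 and 49.4 in iDKO. At day 30 it stood at 199.5, 291, 259, 208 and 325 FPKM in controls, 62.7 and 91.8 in iDKO, and 163, 111 and 126 in iTKO. No mutant library overlapped a control. The log2 change of Sult1d1 was -1.52 ± 0.17 at day 6 (limma adjusted p = 0.00227), -1.73 ± 0.22 in iDKO at day 30 (adjusted p = 0.000499) and -0.93 ± 0.19 in iTKO (adjusted p = 0.00783). In TBX3 iKO Sult1d1 stood at 280.1, 337 and 362 FPKM against 291, 282 and 311 and was not called. Sult1b1 fell by 0.83 ± 0.13 on the log2 scale at day 6 (adjusted p = 0.0072), 0.73 ± 0.13 in iDKO at day 30 (adjusted p = 0.0033) and 0.38 ± 0.11 in iTKO (adjusted p = 0.0403). Its day 30 call ended in iDKO without iDKO 1 (0.0519), and in iTKO without 6 single libraries, all but control 4 and iTKO 1 (0.0571 to 0.162). Sult2b1, a cholesterol and steroid sulfotransferase, stood at 124, 123.3, 138, 126 and 141 FPKM in day 30 controls, 61.1 and 73.5 in iDKO, and 70.6, 78.3 and 71.6 in iTKO. The mutant values were close to one another and well below every control, with log2 changes of -0.95 ± 0.10 (adjusted p = 0.000139) and -0.82 ± 0.09 (adjusted p = 0.000181). At day 6 Sult2b1 fell by 1.00 ± 0.18 (adjusted p = 0.0112). In SMAD4 iKO, Sult1d1 (log2 -1.38, limma adjusted p = 0.0944), Sult2b1 (-1.01, 0.139) and Sult1b1 (107 and 78.6 against 189 and 179 FPKM, 0.0577) were not called.

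**Figure D3:**
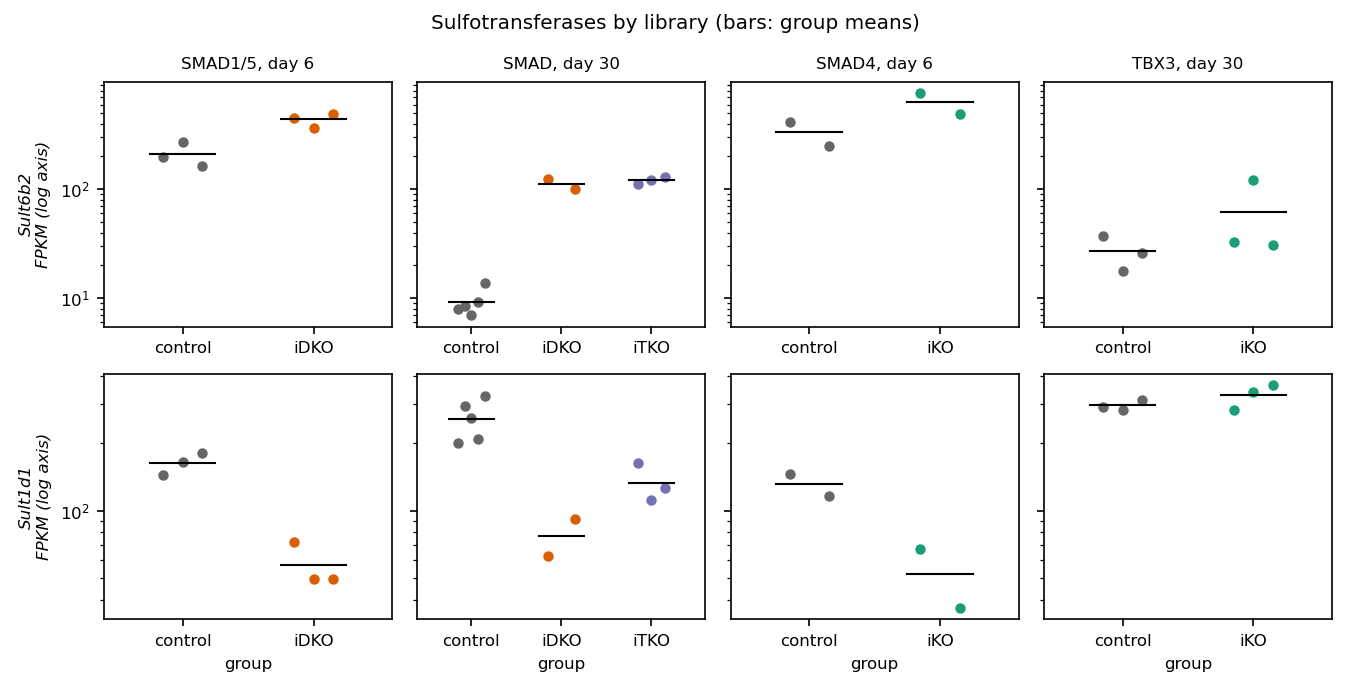
FPKM on a log axis of Sult6b2 and Sult1d1 (rows) in each library (points, bars are group means) of the 4 tables (columns). At day 30 Sult6b2 lies at 101 to 131 FPKM in mutants against 6.92 to 13.6 in controls, while Sult1d1 lies at 62.7 to 163 in mutants against 199.5 to 325.

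The mu-class glutathione transferases held the largest falls at day 6. Mu-class enzymes conjugate epoxides and lipid oxidation products, and their 7 genes adjoin on chromosome 3. Of 7 tested, 6 fell at day 6 and in each day 30 comparison, 2 in SMAD4 iKO and 1 in TBX3 iKO. The share of all genes that fell was 8.26% at day 6, and 9.31% (iDKO) and 8.95% (iTKO) at day 30. It was 2.14% in SMAD4 iKO and 2.08% in TBX3 iKO. Gstm1 stood at 408, 424 and 526 FPKM in day 6 controls against 34.0, 56.8 and 19.4 in iDKO, 12.3-fold lower in the mean (log2 -3.73 ± 0.36, limma adjusted p = 0.00123). At day 30 it stood at 172, 182, 144, 130.1 and 56.8 FPKM in controls, 38.4 and 22.5 in iDKO, and 26.0, 25.4 and 19.2 in iTKO. Control 5 was the lowest control and still above every mutant library. The log2 changes of Gstm1 were -2.10 ± 0.39 (adjusted p = 0.00418) and -2.42 ± 0.34 (adjusted p = 0.000971). In SMAD4 iKO Gstm1 stood at 126 and 102 FPKM against 363 and 596 (-2.03 ± 0.27, adjusted p = 0.0312). In TBX3 iKO it was not lower, at 110.2, 64.3 and 88.2 FPKM against 62.8, 70.4 and 53.1 (0.47 ± 0.21, adjusted p = 0.312).

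Gstm3 was among the most abundant members at day 6, at 1030.2, 1015 and 862 FPKM in controls against 106, 163 and 66.9 in iDKO (log2 -3.20 ± 0.30, limma adjusted p = 0.0012). At day 30 it stood at 220.3, 254, 186, 197 and 109 FPKM in controls, 52.0 and 43.1 in iDKO, and 78.5, 57.1 and 52.4 in iTKO. Groups were apart at both times, with day 30 changes of -1.96 ± 0.28 (adjusted p = 0.000864) and -1.59 ± 0.24 (adjusted p = 0.00147). In SMAD4 iKO Gstm3 stood at 255 and 169 FPKM against 815 and 1598 (-2.46 ± 0.37, adjusted p = 0.0391), and in TBX3 iKO at 397, 235 and 226 against 246, 212 and 165 (0.43 ± 0.25, adjusted p = 0.451). About 13.8% of the 100-base stretches of Gstm3 and 5.86% of those of Gstm1 occur in other transcripts. Gstm2, Gstm4, Gstm6 and Gstm7 fell by 1.30 to 1.99 on the log2 scale at day 6, and by 0.38 to 1.16 at day 30. Without iDKO 1 the day 30 iDKO calls of Gstm4 (0.119) and Gstm7 (0.106) ended, and that of Gstm2 ended without any 1 library but control 4 (0.0592 to 0.346). The iTKO call of Gstm7 ended without control 1, control 2, control 4, iTKO 1 or iTKO 3 (0.0571 to 0.146). Gstm6 alone of the class was called in TBX3 iKO, at 16.6, 17.6 and 18.0 FPKM against 27.9, 24.7 and 24.8 (-0.55 ± 0.10, adjusted p = 0.0354), a call that ended without any 1 library (0.0509 to 0.14). Gstm5 stood at 8.70 to 10.4 FPKM in day 6 controls and 10.3 to 12.4 in iDKO and was called nowhere.

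Gstt1, a theta-class enzyme that acts on small halogenated compounds, fell in all 5 comparisons with controls. In the TBX3 table it stood at 41.1, 36.3 and 39.2 FPKM in controls and 19.0, 17.3 and 16.1 in iKO. At day 6 it stood at 53.8, 67.2 and 62.5 FPKM against 37.3, 36.2 and 23.4. At day 30 controls held 65.6 to 89.0 FPKM (median 80.6), iDKO 44.7 and 42.3, and iTKO 59.5, 52.9 and 49.2. No mutant overlapped a control, the SMAD4 table included (92.7 and 115 against 51.3 and 47.6 FPKM). The log2 change of Gstt1 was -0.93 ± 0.19 at day 6 (limma adjusted p = 0.0172), -0.84 ± 0.12 and -0.54 ± 0.11 at day 30 (adjusted p = 0.00107 and 0.00608), -1.05 ± 0.16 in SMAD4 iKO (adjusted p = 0.0376) and -1.13 ± 0.11 in TBX3 iKO (adjusted p = 0.00581). The day 6 call ended without control 3 or without the number 2 libraries of both groups (0.0577 to 0.0643). Its neighbour Gstt2 was higher at day 6 (24.3, 30.8 and 22.9 against 19.998, 18.6 and 17.4 FPKM, 0.46 ± 0.13, adjusted p = 0.045). That call ended without any 1 library (0.0627 to 0.124), and after median centring (0.29, adjusted p = 0.193).

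Gstp3, a pi-class gene next to Gstp1 and Gstp2 on chromosome 19, rose. It stood at 8.53, 5.56 and 6.40 FPKM in day 6 controls against 14.8, 26.8 and 15.9 in iDKO. At day 30 it stood at 7.94 to 14.7 FPKM in controls (median 10.1), 20.8 and 25.4 in iDKO, and 18.4, 26.8 and 22.3 in iTKO. All mutant libraries lay above all controls. The rise was 1.39 ± 0.25 on the log2 scale at day 6 (limma adjusted p = 0.0109), 1.04 ± 0.23 in iDKO at day 30 (adjusted p = 0.0104) and 0.99 ± 0.20 in iTKO (adjusted p = 0.0069). The iDKO call at day 30 ended without iDKO 2 (0.0851). In SMAD4 iKO the change was 1.02 ± 0.35 (adjusted p = 0.191). Gstp1, the abundant pi-class enzyme at 229 to 289 FPKM in day 30 controls, was called in no comparison. Gsto1 (506 to 799.9 FPKM in day 30 controls) and Mgst2 (230.2 to 286) were not called either. Small changes were called for Mgst3, 0.35 ± 0.11 in iDKO at day 30 (adjusted p = 0.0437), and for Mgst1, -0.27 ± 0.08 in iTKO (adjusted p = 0.0361). The Mgst3 call ended without any 1 library but control 1 (0.0618 to 0.315).

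The alpha-class transferases reduce lipid peroxides and conjugate their products. In SMAD4 iKO Gsta1 stood at 772 and 812 FPKM against 622 and 483 in controls, and Gsta2 at 7.73 and 9.74 against 3.10 and 5.16. Of the 4 genes tested there, Gsta3 alone was called. At day 30 Gsta1 varied widely within groups. Gsta1 stood at 74.6, 105, 48.2, 4.38 and 60.5 FPKM in day 30 controls, 197 and 2.93 in iDKO, and 73.0, 3.73 and 69.6 in iTKO. Each group thus held 1 library near 4 FPKM or lower and others far higher, and neither comparison was called (limma adjusted p = 0.831 and 0.84). Gsta4 split the iDKO libraries in the same way, at 119 and 15.1 FPKM against 39.7 to 61.5 in controls. In the TBX3 table Gsta1 stood at 126, 56.6 and 131 FPKM in iKO against 16.5, 4.34 and 18.4 in controls, 7.99-fold higher in the mean (log2 3.08 ± 0.57, adjusted p = 0.0376) and without overlap. That call ended without any 1 control, iKO 1 or iKO 3 (0.0639 to 0.122). About 80.6% of the 100-base stretches of Gsta1 occur in other transcripts, 64.7% in the predicted gene Gm3776, so its value may include reads of copies. Gsta3, at a few FPKM, fell at day 6 (0.673, 0.619 and 0.314 against 1.503, 1.22 and 3.35 FPKM, -1.21 ± 0.34, adjusted p = 0.0425). It rose in SMAD4 iKO (10.9 and 16.8 against 2.85 and 4.44, 1.79 ± 0.29, adjusted p = 0.0467). In iTKO it stood at 0.238, 0.966 and 0.981 against 0.931 to 3.29 FPKM and fell (-1.21 ± 0.36, adjusted p = 0.0413). The day 6 call ended without 5 of the 6 single libraries (0.0608 to 0.136) and with replicate numbers as pairs (adjusted p = 0.067). The iTKO call ended without 7 of the 8 libraries compared, all but control 5 (0.0587 to 0.162), and the SMAD4 call under 5 other settings (0.05 to 0.0834).

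**Figure D4:**
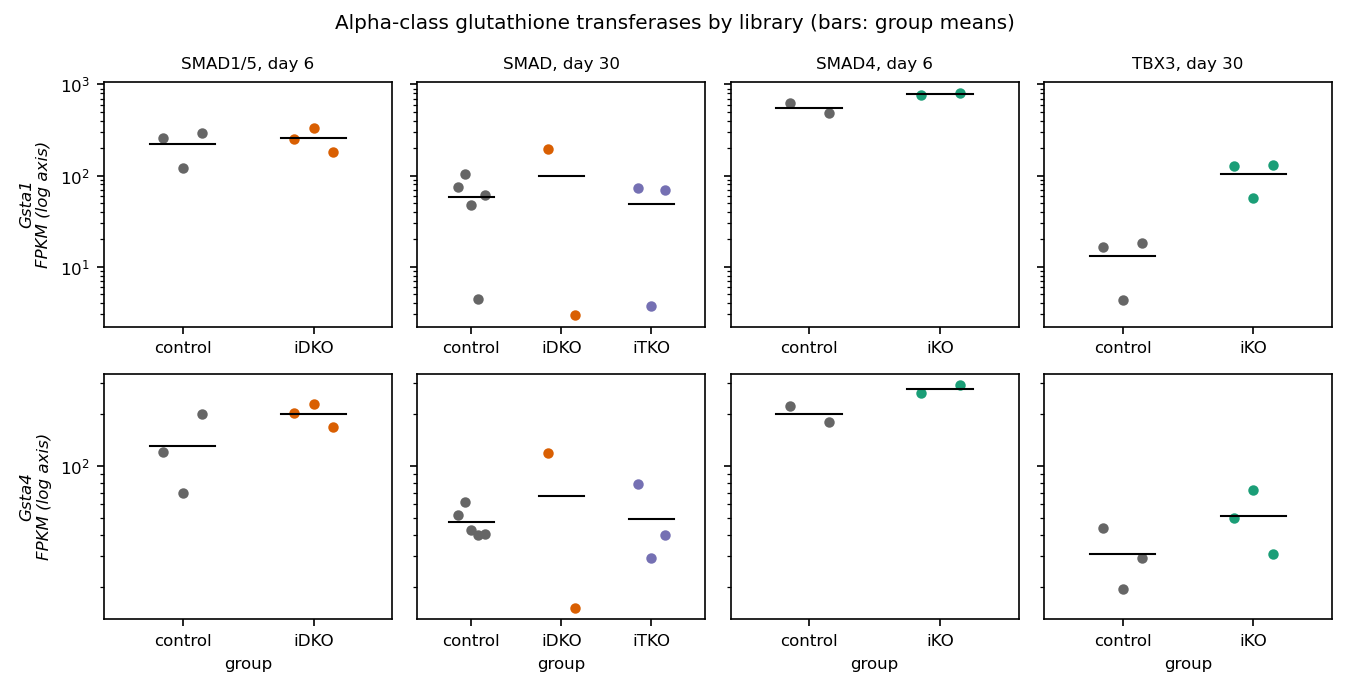
FPKM on a log axis of Gsta1 and Gsta4 (rows) in each library (points, bars are group means) of the 4 tables (columns). At day 30 Gsta1 ranges from 2.93 to 197 FPKM within the 2 iDKO libraries, while in the TBX3 table the 3 iKO libraries (56.6 to 131) lie above the 3 controls (4.34 to 18.4).

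At day 30 most tested Ces1 genes fell and most tested Ces2 genes rose, with few Ces2 calls in the other comparisons. Of 5 tested Ces1 genes, which hydrolyse triglyceride, cholesteryl and drug esters, 3 fell at day 6, 4 in iDKO at day 30 and 5 in iTKO. Of 4 tested in each of SMAD4 iKO and TBX3 iKO, 2 and 0 fell. Of 5 tested Ces2 genes at day 30, 3 rose in iDKO and 4 in iTKO, with 1 falling in each. At day 6, 1 of 6 tested Ces2 genes rose and 2 fell, Ces2g and the weakly expressed Ces2h. In SMAD4 iKO 0 of 6 rose and 1 fell, with the pseudogene Ces2d-ps among the 6, and in TBX3 iKO 0 of 5 were called. Of all genes tested, 8.26% fell and 15.5% rose at day 6. At day 30 these shares were 9.31% and 9.43% in iDKO and 8.95% and 9.13% in iTKO. They were 2.14% and 1.28% in SMAD4 iKO and 2.08% and 1.34% in TBX3 iKO. The rise of 1 of 6 Ces2 genes at day 6 is near its share. The summed level of the carboxylesterase genes in the day 30 table was 1234 to 1493 FPKM in controls, 1960.3 and 2273 in iDKO, and 2479, 1813 and 1644 in iTKO.

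Ces1f was the highest Ces1 gene at day 30, at 224, 240.0, 230.0, 213 and 268 FPKM in controls, 95.05 and 113 in iDKO, and 164, 86.6 and 88.4 in iTKO. Ces1e stood at 16.6, 17.3, 21.1, 18.9 and 18.5 FPKM in controls, 5.32 and 6.24 in iDKO, and 6.79, 6.55 and 6.16 in iTKO. Both genes were below all controls in every mutant library, with Ces1e at the same level in both mutants. Ces1e fell by 1.60 ± 0.11 on the log2 scale in iDKO (limma adjusted p = 2.44e-05) and 1.44 ± 0.10 in iTKO (adjusted p = 1.49e-05), and Ces1f by 1.18 ± 0.21 (adjusted p = 0.00386) and 1.12 ± 0.19 (adjusted p = 0.0027). Ces1c also fell at day 30, in iDKO (limma adjusted p = 0.000855) and iTKO (adjusted p = 0.00319). With 1 library left out, its log2 change ran from -2.03 to -1.78 in iDKO and from -1.46 to -1.21 in iTKO. Ces1c was not called at day 6 and not tested in the SMAD4 and TBX3 tables. At day 6 Ces1e, Ces1f and Ces1g fell by 1.81 ± 0.31, 1.60 ± 0.28 and 1.72 ± 0.36 (adjusted p = 0.00959, 0.00983 and 0.0186). In SMAD4 iKO Ces1e (6.16 and 4.78 against 14.3 and 16.9 FPKM, -1.44 ± 0.19, adjusted p = 0.0312) and Ces1g (2.35 and 2.16 against 6.72 and 6.89, -1.41 ± 0.17, adjusted p = 0.0238) were called. In TBX3 iKO Ces1f stood at 98.2, 111 and 64.5 against 70.9, 47.8 and 54.1 FPKM and Ces1e at 11.97, 16.0 and 6.40 against 16.8, 6.99 and 12.1, and neither was called. The day 30 iDKO call of Ces1f ended without iDKO 1 (0.0559) and that of Ces1g without iDKO 2 (0.14). The day 6 call of Ces1g ended without control 3, iDKO 2, iDKO 3 or the number 2 libraries of both groups (0.0529 to 0.067).

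Ces2a, an intestinal and hepatic carboxylesterase, stood at 276, 223, 289, 206 and 155 FPKM in day 30 controls, 765 and 924 in iDKO, and 949.7, 599 and 469.6 in iTKO. Ces2b stood at 2.66, 1.80, 1.66, 1.16 and 1.41 FPKM in controls, 9.24 and 15.9 in iDKO, and 9.43, 4.62 and 3.15 in iTKO. Every mutant library was above every control for both. Ces2a rose by 1.90 ± 0.28 on the log2 scale in iDKO (limma adjusted p = 0.00108) and 1.52 ± 0.24 in iTKO (adjusted p = 0.00201). Ces2b rose by 2.53 ± 0.37 (adjusted p = 0.00104) and 1.38 ± 0.32 (adjusted p = 0.0134). At day 6 Ces2a stood at 750.4, 754 and 528 against 452, 316 and 615 FPKM and was not called (0.59 ± 0.27, adjusted p = 0.145). Ces2b was called at day 6 (24.7, 25.3 and 16.9 against 11.7, 8.98 and 16.6 FPKM, 0.84 ± 0.25, adjusted p = 0.0482), a call that ended without any 1 library but control 3 (0.0543 to 0.186), after median centring (0.67, adjusted p = 0.0915) and with replicate numbers as pairs (adjusted p = 0.0815). Ces2c stood at 445 and 450.1 FPKM in iDKO and 456, 341 and 319.7 in iTKO against 156 to 341 in day 30 controls, where control 1 reached the iTKO values. It rose by 1.06 ± 0.25 (adjusted p = 0.0124) and 0.78 ± 0.21 (adjusted p = 0.0286). The iDKO call ended without either iDKO library (0.0646 to 0.0893), and the iTKO call without any 1 library but control 1 (0.051 to 0.119).

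Ces2e, the most abundant carboxylesterase gene at 542 to 643 FPKM in day 30 controls, rose in iTKO alone among the calls (857, 745 and 732 FPKM, 0.38 ± 0.10, limma adjusted p = 0.0242), and its difference from iDKO did not pass (adjusted p = 0.556). That call ended without iTKO 1 or iTKO 3 (0.0526 to 0.106). Ces2g was lower, at 65.3, 34.8 and 58.7 FPKM in day 6 controls against 24.7, 18.0 and 22.1 in iDKO (-1.24 ± 0.25, adjusted p = 0.015). Its groups did not overlap at day 6. It also fell in iDKO (-0.58 ± 0.17, adjusted p = 0.0404) and iTKO (-0.75 ± 0.15, adjusted p = 0.00673) at day 30 and in SMAD4 iKO (-1.05 ± 0.14, adjusted p = 0.0312). The day 6 call ended without control 3, iDKO 2 or iDKO 3 (0.0525 to 0.0567), and the iDKO call at day 30 without 5 of the 7 libraries compared, all but control 1 and control 4 (0.0691 to 0.185). About 8.13% of the 100-base stretches of Ces2a and 13.6% of those of Ces2c occur in other transcripts.

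**Figure D5:**
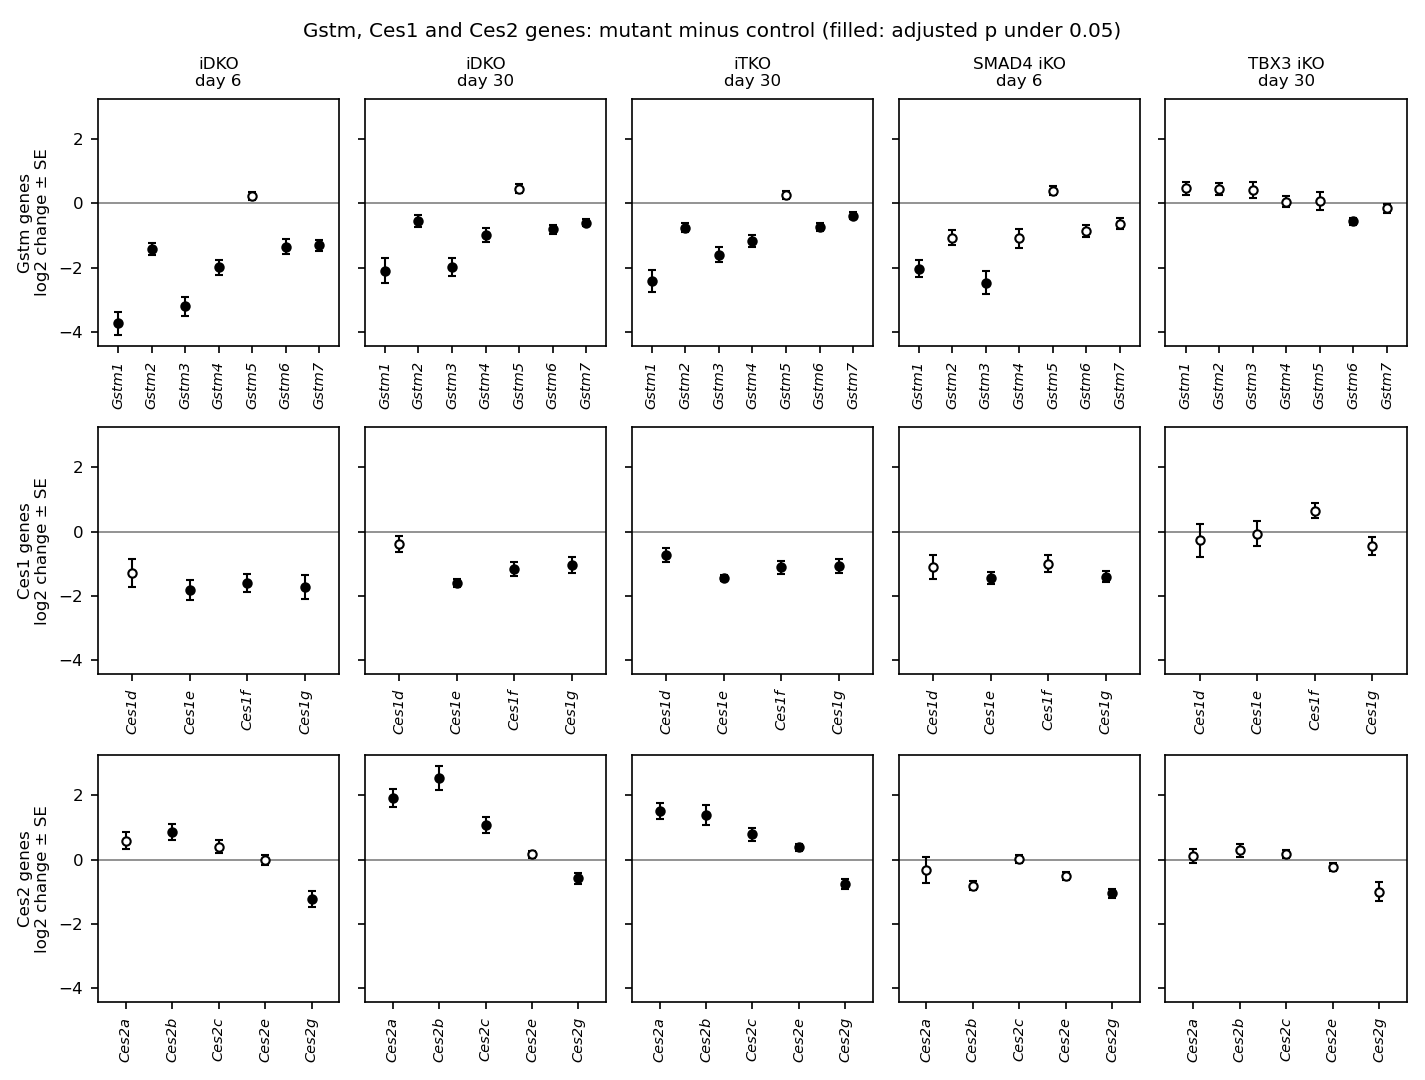
Log2 change with its SE (mutant minus control, on the log2(FPKM + 0.5) scale) of the Gstm, Ces1 and Ces2 genes tested in all 5 comparisons with controls (columns), filled where limma adjusted p is under 0.05. Gstm5 lies above 0 in each panel without a call, the Ces1 genes lie below 0 in every SMAD panel, and Ces2a and Ces2b rise at day 30 by 1.38 to 2.53 while Ces2g falls.

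The day 30 controls joined 2 lines and treatments. Against controls of their own line alone, 7 of 27 named iDKO calls ended, those of Ces1f, Ces2c, Ces2g, Gstm2, Gstp3, Mgst3 and Ugt1a1 (limma adjusted p 0.0536 to 0.325). Of 27 named iTKO calls 4 ended, those of Ces2e, Gsta3, Gstm7 and Sult1b1 (0.0803 to 0.16). Each such fit compares fewer samples.

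Genes that supply or sense these reactions were read from lists of 7 to 22 tested genes. Their counts stand beside shares of all genes of 8.26% lower and 15.5% higher at day 6, 9.31% and 9.43% in iDKO and 8.95% and 9.13% in iTKO at day 30, 2.14% and 1.28% in SMAD4 iKO and 2.08% and 1.34% in TBX3 iKO. No list was tested as such, and small counts near these shares say nothing about a list. Of 22 nuclear receptor and stress sensor genes tested, 5 fell and 2 rose at day 6, 4 fell and 1 rose in iDKO at day 30, 3 fell and 1 rose in iTKO, 1 fell in SMAD4 iKO and 1 rose in TBX3 iKO. Maf, which encodes a factor of middle villus cells, fell at day 30 from 78.4 ± 7.17 (n = 5) to 24.1 ± 2.96 (n = 2) and 31.8 ± 2.13 FPKM (n = 3), mean ± SD. The vitamin D receptor gene Vdr fell in iDKO at both times (log2 -1.16 ± 0.22 and -1.08 ± 0.15), while the pregnane X receptor gene Nr1i2 was not called. Nr1h4, the bile acid receptor FXR, rose in TBX3 iKO from 14.0 to 58.1 FPKM in the mean (2.00 ± 0.16, limma adjusted p = 0.00311). Of 12 or 13 NRF2 targets outside the set, 3 rose and 3 fell at day 6, and 0 to 2 rose and 1 fell in each other comparison with controls. Osgin1 fell in all 4 SMAD mutant groups (-0.83 to -1.37).

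Of 13 tested genes of glutathione supply and breakdown, 7 fell and 1 rose at day 6, and of 15, 6 fell and 1 rose in iDKO at day 30. In iTKO 4 of 15 fell and 1 rose, in SMAD4 iKO 1 of 15 fell and 1 rose, and in TBX3 iKO 1 of 14 fell and 1 rose. The glutathione peroxidase gene Gpx1 rose in all 4 SMAD mutant groups (1.78, 1.21, 1.00 and 1.06), and Gsr, which regenerates glutathione, rose in TBX3 iKO (0.88 ± 0.10, limma adjusted p = 0.00973). The sulfate transporter gene Slc26a2 fell at day 6 (-2.66 ± 0.16) and at day 30 (-1.86 ± 0.19 and -1.41 ± 0.17). Papss2, which makes the donor PAPS, rose in iTKO from 210 ± 33.5 to 538 ± 75.3 FPKM (1.36 ± 0.14, adjusted p = 0.000157). Of 10 sulfate donor genes, 2 rose and 3 fell at day 6, 2 rose and 2 fell in iDKO and 4 rose and 2 fell in iTKO at day 30. In SMAD4 iKO and TBX3 iKO 0 of these were called. Of 7 genes of glucuronate supply and release, 2 rose and 2 fell at day 6, 3 rose and 0 fell in iDKO and 2 rose and 1 fell in iTKO at day 30, and 1 rose in SMAD4 iKO. Gusb, which cuts glucuronides, rose in all 4 SMAD mutant groups (0.67 to 1.10). Of 13 or 14 lipid ester genes, 3 fell and 1 rose at day 6, 4 fell and 1 rose in iDKO and 2 fell and 1 rose in iTKO at day 30, with 1 falling in SMAD4 iKO and 2 in TBX3 iKO. Of 11 or 12 other conjugating and hydrolysing genes, 3, 4 and 4 fell and 1, 1 and 0 rose in the same first 3 comparisons, with 1 falling in SMAD4 iKO and 2 in TBX3 iKO. Lipe, the hormone-sensitive lipase, fell in all 4 SMAD mutant groups (-1.01 to -1.83), and Aadac and Bche fell in TBX3 iKO (-1.40 and -1.11).

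Fixed motifs were searched on both strands in the 300-base promoters of 59 members with a RefSeq start. The antioxidant response core TGACNNNGC was found in 4 genes (Gsta3, Gstm5, Gstm7 and Mgst1), where 12.4% of all promoters hold it, and the BMP SMAD element GGCGCC in 2 (11.9% of all). The SMAD palindrome GTCTAGAC was found in 0 (0.213%), the T-box motif AGGTGTGA in 1 (1.28%) and the HNF4 motif CAAAGTCCA in 1 (0.475%). The AHR core GCGTG was found in 12 (32.4%). The pregnane X receptor ER6 motif was found in 0, and in 0% of all promoters, so its absence from members says nothing about them. Member counts are of genes, while these shares are of promoters. Overlaps between matches of different motifs were not counted. None of the 7 was found in the 6 promoters printed above or in that of Sult6b2.

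Members at low levels complete the set. In all, 13 were tested nowhere. They were Ces1a, Ces1b, Ces2f, Ces3b, Gsto2, Gstt4, Sult1a1, Sult4a1, Sult5a1, Sult6b1, Ugt1a10, Ugt2b1 and Ugt2b37, with a highest value of 2.76 FPKM (Ces3b). Another 18 were tested and never called, Gsto1, Gstp1, Mgst2, Gsta4, Gstk1, Gstz1 and Ugt1a7c among them. Of all 68 transcripts, 36 shared no 100-base stretch with another gene and 19 shared at least 10%.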

How the data were processed

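Polyadenylated RNA was sequenced as paired-end reads. The submitters' processing notes list HISAT2 2.2.1 (an aligner), featureCounts 2.0.1 (a read counter) and both GRCm39 and mm10, and do not tie a build to a table. No strand setting is given, so overlapping antisense genes cannot be told apart. FPKM values were computed and deposited by the authors in 4 separately normalised tables. FPKM scale fragments to transcript length and library size, and the fragment totals were not used here, so no counting intervals are given.

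Within each table, genes with at least 1 FPKM in as many libraries as the smallest group were kept and log2(FPKM + 0.5) was fitted with limma 3.58.1 (R 4.3.3) with a mean-variance trend, all groups of a table in 1 fit. Fold changes of low genes are understated on this scale. Benjamini-Hochberg adjustment ran over every tested gene per comparison, and calls needed an adjusted p under 0.05. The procedure was tested on simulated data. Sums and promoter searches used pandas 2.3.3 and numpy 2.4.6 under Python 3.11.15, with figures from matplotlib 3.10.9. Promoters are RefSeq's for GRCm38.p6, and shared stretches are 100-base windows of a transcript found in transcripts of another gene.

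Members and lists were chosen with earlier results of these data known. Members named were Sult6b2, up to 4 called members per family, direction and comparison with a higher mean of at least 5 FPKM, those called the same way in at least 3 comparisons, and the 3 highest of each family in controls. Ugt1a9, Mgst1, Gsta2, Gsta4, Gstk1, Gstm5, Gstz1, Sult1c2, Ces2d-ps, Ces2h and the members tested nowhere fall outside that rule. They were named after their values were seen and have no fits without single libraries or under other settings here.

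Pairing by replicate number was checked first, without looking at calls. Among day 6 SMAD1/5 samples, deviations of libraries with the same number correlated positively (r = 0.143, 0.583 and 0.221). Only control 2 deviated most like the iDKO library of its own number, and the labels do not say that numbers mark pairs. The printed day 6 p-values come from the fit without pairs, and blocked values are given where they change a day 6 call. Alternatives were pseudocounts of 0.1 and 1, no filter, a filter at 5 FPKM, median-centred and quantile-normalised values, no trend, same-line controls, the replicate block and leaving out each library. Leaving out the number 2 libraries of both day 6 groups, low in Paneth cell genes, was added after seeing the data.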

Additional observations from a re-analysis of the deposited data

Results flagged for a closer look

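Only the day 30 SMAD controls, 5 libraries, form a group of 4 or more, and 36 named members were examined there. In 2 of these members 1 value lay far from the other 4, where chance gives about 1 in 20. So 2 of 36 is near that share, and all 36 rest on the same 5 libraries. Ces1g stood at 11.7 FPKM in day 30 control 2, against 5.93 to 7.32 in the other 4 controls, a gap of 0.757 of the whole range. Ugt1a7c stood at 137 FPKM in day 30 control 1, against 68.5 to 88.3 in the other 4, a gap of 0.711 of the range.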

How the results depend on the processing

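No member named under the selection rule given above turned its direction past the threshold under any alternative run. Members named outside that rule were not followed in this way. Counts of members moved by over 1.5 times as follows. At day 6, 2 members were higher with no filter, after median centring, without the trend and without the number 2 libraries of both groups. In iDKO at day 30, 3 were higher against controls of the same line. Between iTKO and iDKO, 0 were higher without the trend. In SMAD4 iKO, 0 were higher with a pseudocount of 0.1, with no filter, after median centring, with quantile normalization and without the trend, and 5 were lower with no filter. In TBX3 iKO, 0 were higher and 4 lower with no filter. With 1 library left out, members higher and lower ranged over 1 to 4 and 14 to 26 at day 6, 3 to 6 and 15 to 21 in iDKO at day 30, 4 to 7 and 18 to 22 in iTKO, 0 to 1 and 0 to 1 between them, 0 and 0 in SMAD4 iKO, and 0 to 1 and 2 to 6 in TBX3 iKO. Where a group was left with 1 library, it was assumed to vary like the other groups.

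With the replicate block, 3 members were higher and 23 lower at day 6. Ces2b and Gsta3 lost their calls and no other day 6 call of a member named under the selection rule changed. Numbers were taken as pairs in no main fit. In the other tables correlations of equal numbers had mixed signs at day 30 and were -0.151, -0.312 and -0.010 for TBX3. They gave a single value of 0.283 in the SMAD4 table. The block there gave 3 members higher in iDKO and 2 in iTKO at day 30, 0 between them, 4 in SMAD4 iKO, and 4 lower in TBX3 iKO.

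Over all genes, counts higher and lower became 1117 and 1162 with quantile normalization at day 6, 526 and 496 against controls of the same line in iDKO at day 30, 98 and 135 with no filter in SMAD4 iKO, and 55 and 71 with no filter in TBX3 iKO. With the block they were 1924 and 1031 at day 6, 367 and 379 in iDKO and 408 and 490 in iTKO at day 30, 1 and 7 between them, 314 and 520 in SMAD4 iKO and 23 and 17 in TBX3 iKO. Without the number 2 libraries of both day 6 groups, 1046 genes were higher. With single libraries left out, all-gene counts higher and lower ranged over 582 to 1592 and 504 to 822 at day 6 (1681 and 894 with all), 476 to 1137 and 429 to 1088 in iDKO (1126 and 1112), 593 to 1027 and 653 to 1018 in iTKO (1090 and 1069), 0 to 154 and 20 to 165 between them (26 and 65), 0 and 0 in SMAD4 iKO (156 and 261), and 21 to 124 and 21 to 214 in TBX3 iKO (131 and 204), so the shares of all genes printed beside member counts move as well. Depth limits the low members, and for SMAD4 it is unknown.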
